A study of Mus musculus with 2 samples.

Results

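Mitochondrial ribosomal protein genes were taken as the protein-coding genes of the mouse annotation whose symbol starts with Mrpl (large subunit) or Mrps (small subunit). The rule gave 78 genes, of 16674 annotated genes with a read in at least 1 library and 22028 protein-coding genes in GENCODE M21. They were read in the adrenal gland of C57BL/6J mice by long-read RNA-seq, which reads single cDNAs along their length and so shows which exons a molecule joined. There was 1 group with 2 biological replicates, each a separate biosample of total RNA from mice of The Jackson Laboratory, and no treatment, genotype or time was compared. The labels describe the animals as female, while the sex field reads not collected and the age is unknown.

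Mitochondria carry their own ribosome, which translates the few proteins encoded by mitochondrial DNA, all of them core subunits of the respiratory chain and ATP synthase. Its ribosomal RNAs come from mitochondrial DNA, but its proteins are encoded in the nucleus, made in the cytosol and imported. Some are relatives of bacterial ribosomal proteins and others exist only in mitochondria. In the adrenal cortex, mitochondria also house steps of steroid synthesis, among them the side-chain cleavage of cholesterol by Cyp11a1.

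Replicate 1 held 810239 reads and replicate 2 held 587861. The libraries differed in the length of what they held: over all annotated genes, the median read lay on a model of 1615 nt in replicate 1 and of 3014 nt in replicate 2. Of 6 steroidogenic markers all were read, and together they took 7.73% and 9.09% of the reads. Of 5 chromaffin markers all were read (0.619% and 0.850%), the 3 kidney markers had 0 reads and the 3 liver markers had 1 read in all. Markers of other cells moved between the libraries too: 4 erythroid genes had 1475 and 123 reads, 4 macrophage genes 802 and 148, 4 endothelial genes 168 and 389, 4 capsule and fibroblast genes 206 and 121, and 3 adipocyte genes 94 and 23. Some of these sums hide opposite directions. By the binomial test described below, 3 steroidogenic markers were called higher in replicate 1 and 3 higher in replicate 2. Hsd3b1 had 11333 and 2916 reads, and Nr5a1 244 and 1104. Of the chromaffin markers, 3 were called higher in replicate 1 and 2 higher in replicate 2. Pnmt had 318 and 48 reads, and Dbh 38 and 204. Of the macrophage genes, 2 were called higher in replicate 1 and 2 higher in replicate 2. Lyz2 had 726 and 59 reads, while Csf1r had 16 and 48. Of the capsule and fibroblast genes, 1 was called each way, Dcn at 171 and 22 reads and Col1a1 at 10 and 52. The markers also differed in annotated model length: a median of 663.5 nt for the erythroid genes, 1316 nt for Lyz2 and 4701 nt for Csf1r. All 4 erythroid genes were called higher in replicate 1. Around the length curve described below, 0 were called higher in replicate 1 and 2 higher in replicate 2. Those counts were 1 and 0 for macrophage, 0 and 2 for endothelial, 1 and 1 for capsule and fibroblast, and 0 and 0 for adipocyte genes. The part of these cell types in the results below was not tested. In bulk RNA, fewer cells of a type and less RNA per cell cannot be told apart.

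The sequence at which these genes start is shown first. The motif counts of the members do not depend on the libraries. The share among genes read here, the windows printed and the ratios set beside the motifs do. Of the 78 symbols, 69 matched the RefSeq promoter windows on GRCm38.p6, which run from 250 bases before to 50 bases after a start. 3 short motifs were searched on both strands: GCATGCG, the core of the site of NRF1, a regulator of nuclear genes for mitochondria; CCGGAAG, an ETS-type site of the kind bound by GABP; and AAGATGG, the core of the YY1 site. Members were counted per gene, with a match in any window, and 3 had more than 1 window. All windows together were counted per window. The ETS-type letters were in 26 of 69 members (37.7%, 95% interval 26.3 to 50.2%) and in 8.86% of all 32851 windows. The YY1 letters were in 13 (18.8%, 10.4 to 30.1%) against 6.34%, and the NRF1 letters in 8 (11.6%, 5.14 to 21.6%) against 3.58%. Among the 7603 matched genes with at least 10 reads here, the shares were 22.5% for ETS, 9.18% for YY1 and 7.81% for NRF1, nearer to those of the members and, for NRF1, inside the members' interval. In all, 38 members held at least 1 motif and 9 held 2 kinds. These matches describe letters in a window and not bound sites.

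Windows of 30 bases are given 5′ to 3′ on the strand of the gene, with the match in capitals, for members with 2 kinds of motif or among the most read. In Mrpl33, the NRF1 and ETS letters lie side by side at the start, on chromosome 5 from 31613928 to 31613965 on the plus strand.
Mrpl33 NRF1, reverse strand: taccggaacccgCGCATGCcccggaagtag
Mrpl33 ETS: cccgcgcatgccCCGGAAGtagtcgttgag
Mrpl52 YY1: gtacgataacgcAAGATGGtgggaccggcg
Mrpl52 ETS, reverse strand: tcaagatgtcggCTTCCGGttttcccggca
Mrpl17 NRF1, reverse strand: gccgagttactgCGCATGCgtcctctgaga
Mrps27 ETS, reverse strand: gtggtaggaccaCTTCCGGcggaggcgggc
Mrps18a ETS: cacacccctgctCCGGAAGcggaagtgcac
Mrps21 ETS, reverse strand: ccgtagcttccgCTTCCGGtccgcagagac
The Mrpl52 windows start at 54426806 and 54426850 on chromosome 14 (plus strand), the Mrpl17 window spans 105811080 to 105811109 on chromosome 7 (minus), the Mrps27 window starts at 99344726 on chromosome 13 (plus), the Mrps18a window at 46110966 on chromosome 17 (plus), and the Mrps21 window spans 95871479 to 95871508 on chromosome 3 (minus). Of 65 matches in the members, 52 lay within 100 bases of the start. Matches were counted on each strand, so an NRF1 site that reads on both strands counted for each. In Mrpl17 such a pair lay at -10 and -9 bases from the start. The share within 100 bases was not computed over all windows. Members with the ETS letters had a median log2 ratio of replicate 2 over replicate 1 of -4.45, and matched members without them -3.39. For YY1 the medians were -3.78 and -4.17, and for NRF1 -4.53 and -4.00. These medians are not adjusted for transcript length, with which the ratio varied (below). A link between motifs and the ratio was not tested.

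All 78 members were read in replicate 1 and 75 in replicate 2. Together they took 7317 reads, 0.903% of replicate 1 (95% Clopper-Pearson interval 0.883 to 0.924%), and 598 reads, 0.102% of replicate 2 (0.0937 to 0.110%). The mean was 0.502% ± 0.567 (SD, n = 2), so the spread between the replicates was as large as the level itself. On library sizes scaled by TMM, a method that sets the typical gene equal between libraries, the members' summed reads were 12.3-fold higher in replicate 1 (11.3 to 13.4), and on total reads 8.88-fold (8.17 to 9.67). CPM, the count scaled to the total reads of a library, is not divided by length here, because in this assay 1 read stands for 1 cDNA whatever its length. The members' CPM ran from 13.6 to 307 with a median of 104 in replicate 1, and from 0 to 59.5 with a median of 8.51 in replicate 2. Over all annotated genes that were read, the medians were 9.87 and 15.3 CPM, so the median member lay above that of all genes in replicate 1 and below it in replicate 2.

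**Figure D1:**
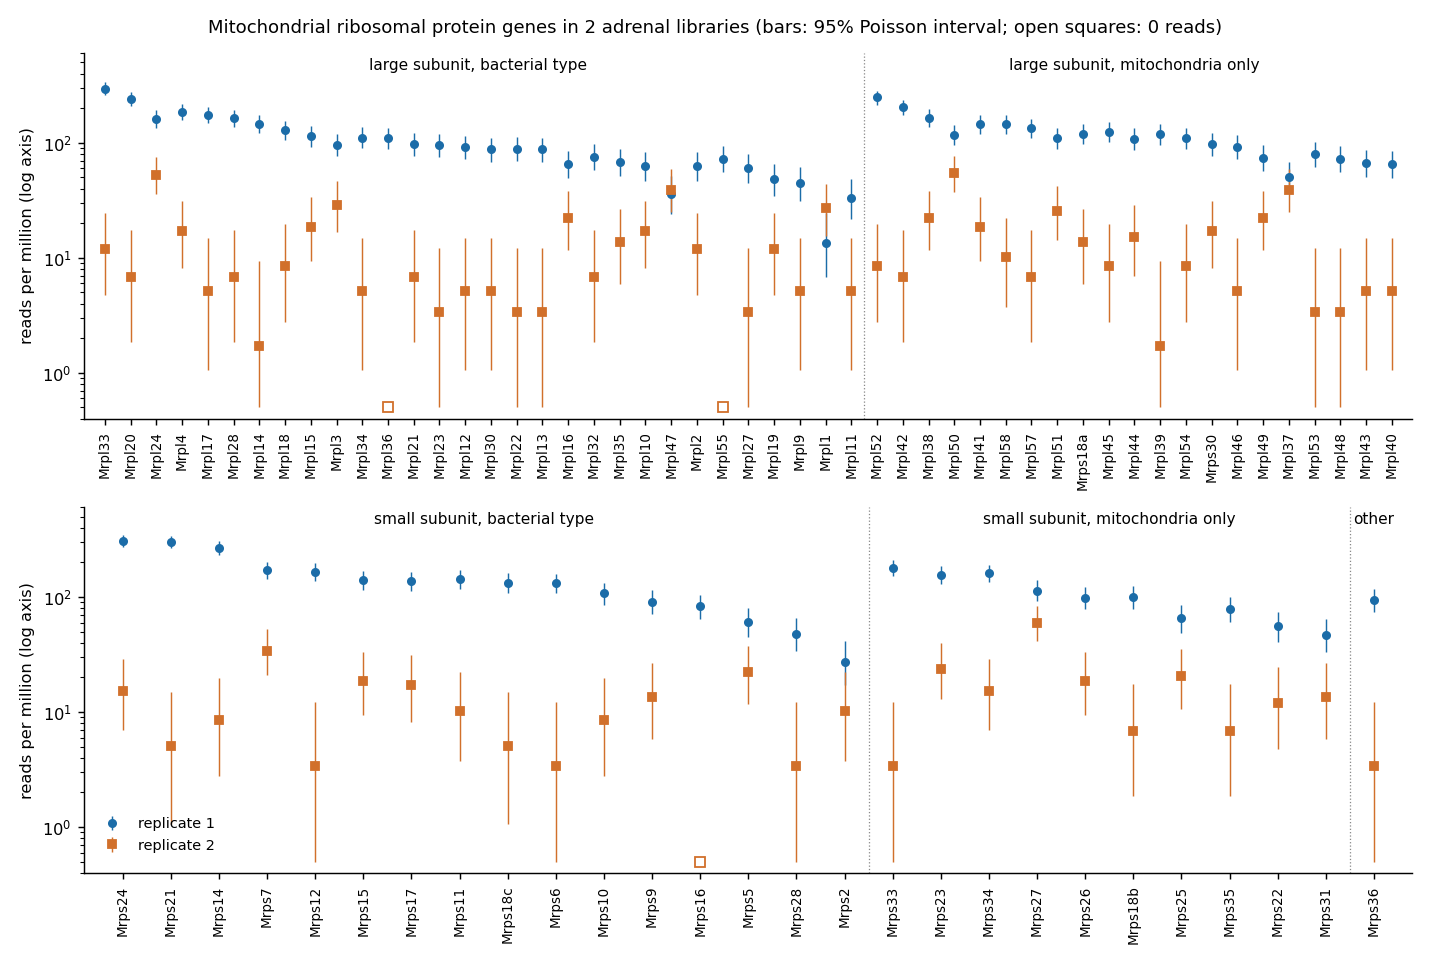
CPM (log axis, reads scaled to library total) of each of the 78 genes in replicate 1 (blue circles) and replicate 2 (orange squares), grouped by subunit and origin and ordered by mean level. Bars are 95% Poisson intervals of the count, drawn down to the foot of the axis where they reach below it; open squares mark the 3 genes with 0 reads in replicate 2, and replicate 1 lies above replicate 2 in all but Mrpl47 and Mrpl1.

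The order of the members was not shared by the libraries. The 10 members with the most reads in replicate 1 and the 10 with the most in replicate 2 had 0 members in common. Across the 78 members, log2 CPM of the 2 libraries correlated with Pearson's r = -0.02 and Spearman's rho = 0.03, a description over genes that share both libraries. By mean CPM the highest 10 were Mrps24, Mrpl33, Mrps21, Mrps14, Mrpl52, Mrpl20, Mrpl24, Mrpl42, Mrps7 and Mrpl4. Since replicate 1 sets most of these means, the order is mostly that of replicate 1. The Poisson intervals of many neighbours overlap there, but not those of Mrpl20 and Mrpl24, since Mrpl24 owes its place to its 31 reads in replicate 2.

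For each gene with at least 10 reads over both libraries, the 2 counts were compared by an exact binomial test against the share that the TMM-scaled sizes give. Such a test sets these 2 libraries against each other and has no replicate within either. By this exact binomial test, adjusted by Benjamini-Hochberg over all 9809 genes, 76 of the 78 members were called higher in replicate 1 and 0 higher in replicate 2. Of all genes tested, 66.2% were called in either direction, 35.6% higher in replicate 1 and 30.6% higher in replicate 2. The median log2 ratio of replicate 2 over replicate 1, with 0.5 reads added to each count, was -3.98 over the members and -0.01 over all genes. It ranged from -7.49 for Mrpl36 to 0.51 for Mrpl1. The members without a call were Mrpl47 and Mrpl1, both bacterial-type proteins of the large subunit.

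The 30 bacterial-type proteins of the large subunit include parts of the peptidyl transferase region, the stalk and the exit tunnel. Of them, 28 were called higher in replicate 1, with a median log2 ratio of -4.20 and a summed fold of 12.2 (10.6 to 14.1). Mrpl33 on chromosome 5, a small protein of the bacterial L33 family, had 239 reads in replicate 1 and 7 in replicate 2 (153 ± 200 CPM, SD, n = 2). Mrpl20, of the L20 family that binds large-subunit RNA early in bacterial assembly, had 194 and 4 reads, a fold of 48.8 (18.7 to 181). Mrpl4 had 150 and 10 reads, 15.1-fold higher in replicate 1 (7.98 to 32.1). For these 3 genes replicate 1 lay far above replicate 2 and the counting intervals did not overlap.

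Mrpl36, of the L36 family, on chromosome 13, had 89 reads in replicate 1 and 0 in replicate 2. Mrpl55 had 59 and 0 reads. With the 3 reads that a count of 0 allows set in their place, the ratios of replicate 1 over replicate 2 were 29.8 for Mrpl36 and 19.8 for Mrpl55. The lower limits of their counting intervals were 23.8 for Mrpl36 and 15.6 for Mrpl55. Those 3 reads stand for 5.10 CPM in replicate 2. Mrpl14 had 119 reads and 1 read, a ratio of 120 whose counting interval ran from 21.1 to 4766. Mrpl13 (71 and 2 reads), Mrpl22 (72 and 2), Mrpl23 (77 and 2) and Mrpl27 (49 and 2) also had under 3 reads in replicate 2. Mrpl36 and Mrpl55 were thus not detected in replicate 2 at its depth, which does not show that they are absent.

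Mrpl47, counterpart of the bacterial L29 protein at the tunnel exit, had 29 and 23 reads (37.5 ± 2.36 CPM, SD, n = 2). Its fold was 1.27 (0.708 to 2.29), with an adjusted p of 0.473 in the exact binomial test. Mrpl1, of the L1 stalk family, had 11 and 16 reads, a fold of 0.691 (0.290 to 1.59), adjusted p = 0.506 in the same exact test. These 2 genes were the only members with a higher CPM in replicate 2, although for Mrpl47 the log2 ratio was -0.34 on TMM-scaled sizes and 0.09 on total reads. The intervals of both folds include equal levels. Mrpl47 shares 452 exon bases with Actl6a and 616 with Ndufb5 on the opposite strand.

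Mrpl24, near the tunnel, had 131 and 31 reads (107 ± 77.0 CPM, SD, n = 2) and a fold of 4.25 (2.86 to 6.51). Of the 6 exit-tunnel genes, 5 were called higher in replicate 1, and the list's median log2 ratio was -3.72. The 3 stalk genes, Mrpl10, Mrpl11 and Mrpl12, recruit translation factors, and all 3 were called higher in replicate 1, at 51 and 10, 27 and 3, and 74 and 3 reads. All 6 genes of the central protuberance, the part that faces the small subunit, were called higher in replicate 1 with a median log2 ratio of -4.29. Mrpl38 was the most read of them, at 134 and 13 reads.

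The 21 large-subunit proteins found only in mitochondria were all called higher in replicate 1, with a median log2 ratio of -3.97 and a summed fold of 11.3 (9.66 to 13.2). Mrpl52 had 201 and 5 reads (128 ± 169 CPM, SD, n = 2) and Mrpl42 had 165 and 4. Mrpl39 had 96 reads and 1 read, a fold of 96.5 (16.9 to 3853). Mrpl48, of the central protuberance, had 59 and 2, and Mrpl53 had 65 and 2. Mrpl50 and Mrpl37 were the least uneven, at 95 and 32 and at 41 and 23 reads, with folds of 2.99 (1.98 to 4.61) and 1.79 (1.05 to 3.13). The call for Mrpl37 is near the threshold, with an adjusted p of 0.0376 in the exact binomial test, and it is lost with DESeq2 size factors (0.0502), without the read minimum (0.0611) or on total counts (0.368). Mrpl58, a release factor relative built into the ribosome, had 117 and 6 reads.

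The 16 bacterial-type proteins of the small subunit were all called higher in replicate 1, with a median log2 ratio of -4.09 and the highest summed fold of the 4 structural groups, 17.97 (14.8 to 22.1). Mrps24 on chromosome 11, counterpart of the bacterial S3 protein at the mRNA entry, was the most read member by mean, with 249 and 9 reads (161 ± 206 CPM, SD, n = 2). Mrps21 had 244 and 3 reads, a fold of 81.8 (27.7 to 399). Mrps14 had 216 and 5 reads. These 3 genes lay between 267 and 307 CPM in replicate 1 and between 5.10 and 15.3 CPM in replicate 2. Mrps24 shares 226 exon bases on the same strand with Urgcp, which had 26 and 172 reads.

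Mrps16 had 67 and 0 reads, a ratio of 22.5 with 3 reads for 0. The lower limit of its counting interval was 17.8. Mrps12, whose bacterial counterpart takes part in decoding, had 134 and 2 reads, a fold of 67.4 (18.3 to 562). Mrps6 had 107 and 2, and Mrps28 had 39 and 2. Mrps7, which binds the head of the small-subunit RNA, had 139 and 20 reads, a fold of 6.99 (4.36 to 11.8), and was among the members with the most reads in replicate 2. Mrps2 had the lowest mean CPM of all members, with 22 and 6 reads (18.7 ± 11.98 CPM, SD, n = 2).

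The 10 small-subunit proteins found only in mitochondria were all called higher in replicate 1, with a median log2 ratio of -2.98. Their summed fold of 8.11 (6.62 to 10.02) lay below the interval of the bacterial-type small-subunit group. The groups also differed in median annotated model length, at 1423.5 nt here and 1006.5 nt there. Around the length curve described below, 4 of these 10 and 5 of those 16 were called higher in replicate 1. Mrps33 had 145 and 2 reads, a fold of 72.9 (19.8 to 608). Mrps27, which carries repeats of the kind found in RNA-binding proteins, had 92 and 35 reads, the highest count of a member in replicate 2 (86.5 ± 38.2 CPM, SD, n = 2). Its fold was 2.64 (1.77 to 4.02). Mrps36, grouped apart because the protein is known as a subunit of the oxoglutarate dehydrogenase complex, had 76 and 2 reads.

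Of the 3 paralogs of bacterial S18, Mrps18c sits at the bacterial position, Mrps18b elsewhere in the small subunit and Mrps18a in the large subunit. They had 108 and 3, 81 and 4, and 97 and 8 reads. All 3 were called higher in replicate 1, with a summed fold of 19.2 (11.4 to 34.7). Their intervals within each library overlap, so no paralog stood apart.

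The balance between the subunits differed between the libraries by less than counting error. Genes of the large subunit took 62.3% of structural member reads in replicate 1 (61.2 to 63.4%) and 64.6% in replicate 2 (60.6 to 68.4%), and they make up 66.2% of the genes. The 2 intervals overlap. The median large-subunit gene had 97.5 and 8.51 CPM, and the median small-subunit gene 123 and 11.1.

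Members have short coding sequences, with a median of 588 nt over the 77 whose most used annotated model is coding, against 1239 nt over the tested genes. Across the 78 members, the log2 ratio rose with the log2 length of the annotated model with most reads, with Pearson's r = 0.45 and Spearman's rho = 0.54. With coding length, over 77 members, the values were 0.61 and 0.61. Over all 9173 genes with a model length, the values with that length were 0.61 and 0.63. With coding length, over 8521 genes, they were 0.63 and 0.65. These are descriptions over genes of 1 pair of libraries.

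To compare each member with genes of its own annotated length, a lowess curve of the log2 ratio on length was fitted over all genes and used as the expected ratio. By the exact binomial test around that curve, adjusted by Benjamini-Hochberg, 26 members were called higher in replicate 1, 3 higher in replicate 2 and 49 were not called. Of all 9173 genes, 42.4% were called in either direction, 21.1% higher in replicate 1 and 21.4% higher in replicate 2. The median adjusted log2 ratio was -0.96 over the members and 0.06 over all genes. Of the 76 members called before, 25 kept their direction, 48 lost the call and 3 turned, while Mrpl47 gained a call. The 3 that turned were Mrpl24 (0.93), Mrpl16 (1.44) and Mrpl37 (1.70). Their adjusted p values in this exact binomial test were 0.00785, 0.0101 and 0.000112.

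**Figure D2:**
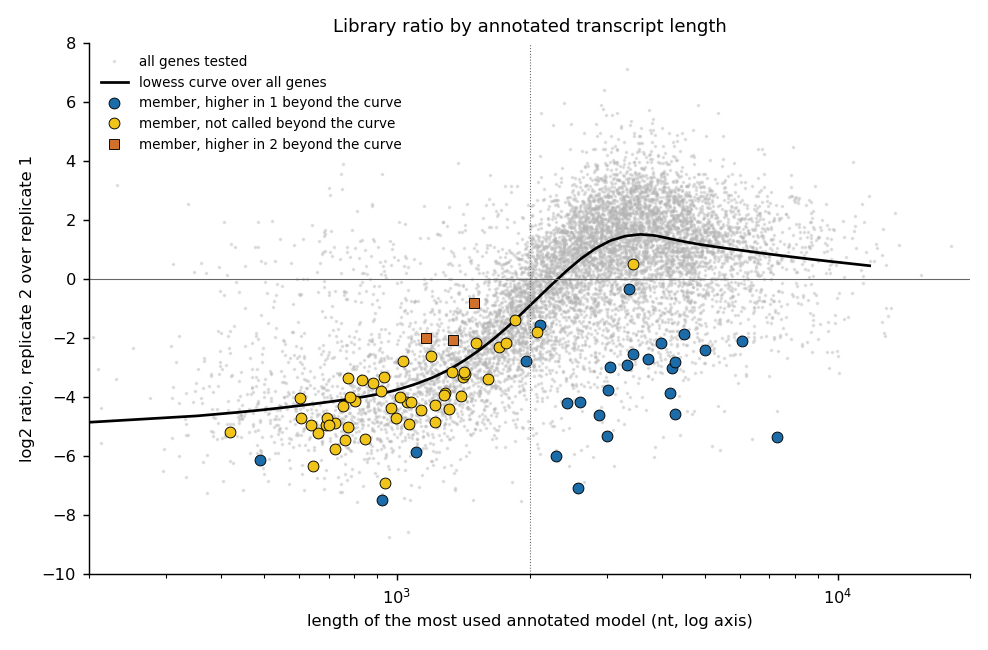
Log2 ratio of replicate 2 over replicate 1 against the length of the annotated model with most reads (nt, log axis). Grey points are the 9173 genes with a length, the black line is the lowess curve, and coloured points are the 78 members by their call around that curve; to the right of the dotted line at 2000 nt most members lie far below the curve.

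The members called higher in replicate 1 around the curve were mostly those with long annotated models, at a limit of 2000 nt set after the values were seen. Of 24 members with a model of 2000 nt or more, 22 were called higher in replicate 1, with a median adjusted log2 ratio of -4.32, and Mrpl1 and Mrps2 were not called. Of 54 members with a shorter model, 4 were called higher in replicate 1 and 3 higher in replicate 2, with a median of -0.57. The 4 were Mrps7, Mrps21, Mrps33 and Mrpl36, and the call for Mrps21 (-1.69) was lost with a wider lowess span (-1.35) or with the mean length of its reads' models (-1.30). Before adjustment, the 24 members had a median log2 ratio of -2.96, where the 6089 genes of that length had 0.94. The 54 members had -4.16 and the 3084 genes of that length -2.71. Also before adjustment, 22.7% of all genes from 2000 to under 3000 nt were called higher in replicate 1, and 8 of 8 members. From 3000 nt it was 11.6%, and 14 of 16 members. The share called around the curve was not computed for all genes of these lengths. Partner genes with long models, listed below, went both ways there, such as Slirp (2701 nt, -6.48) and Iars2 (5471 nt, 2.19). Coding length hardly differed between the 2 sets of members, with medians of 625.5 and 558 nt.

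Much of the annotated length of the long models lies outside the coding sequence. Mrpl17-202 is 7300 nt long with 528 coding nt, and Mrpl17 on chromosome 7 had 142 and 3 reads and an adjusted log2 ratio of -6.16. Mrps14-203 is 2999 nt long with 384 coding nt, and its adjusted log2 ratio was -6.54. Mrps16-201 is 2572 nt long with 405 coding nt, at -7.68.

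Reads on annotated models are deposited with the ends of the annotation, so their own ends cannot be seen. Unannotated spliced models carry deposited ends, which need not be those of the reads. In Mrps16 and Mrpl51, such models ended at 20391227 and 125193558, where the shorter annotated transcripts Mrps16-202 and Mrpl51-202 also end. Whether ends were set from the annotation was not tested. Models that held the last annotated junction of a member were compared with the 3′ end of its most used annotated model. Each read took the end of its model. For members with annotated models under 2000 nt, 411 of 451 such reads in replicate 1 ended within 100 nt of it (91.1%, 88.1 to 93.6%), and 55 of 63 in replicate 2 (87.3%, 76.5 to 94.4%). Mrpl33 gave 218 of the 451, and without it the share was 82.8% (77.4 to 87.4%) in replicate 1. For members with models of 2000 nt or more, 0 of 62 reads from 14 genes did so in replicate 1 (up to 5.78%), and 5 of 11 in replicate 2 (45.5%, 16.7 to 76.6%).

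The median end of these reads in replicate 1 lay between 702 and 3486 nt before the annotated end. It was 2350 nt before it in Mrps14 (8 reads), 3166 nt in Mrpl15 (5 reads), 3486 nt in Mrpl48 (5 reads), 2189 nt in Mrpl32 (7 reads) and 1923 nt in Mrps16 (5 reads). In Mrps5, by contrast, 3 of 4 such reads of replicate 2 ended at the annotated end and the 1 read of replicate 1 lay 2974 nt before it. For these members the deposited 3′ ends of such models in replicate 1 therefore lay before the annotated end. Whether the same holds for the reads on annotated models was not tested.

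With coding length in place of model length, a choice made after the data were seen, 46 of 77 members were called higher in replicate 1 and 3 higher in replicate 2. Of all 8521 genes in that fit 49.9% were called in either direction, 23.6% higher in replicate 1 and 26.3% higher in replicate 2. The median adjusted log2 ratio was -1.57 over the members and 0.01 over all genes. The 3 members higher in replicate 2 were Mrpl1, Mrpl47 and Mrpl50. The calls higher in replicate 2 for Mrpl16, Mrpl24 and Mrpl37 were lost, at -0.06, 0.23 and -0.77. The sign of the adjusted ratio changed in 17 of the 77 members, among them Mrpl16, Mrpl37, Mrpl1, Mrpl47 and Mrpl50, so for these the direction depends on which length is used.

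Reads of members fell mostly on annotated models. In replicate 1 their share was 89.9% (89.2 to 90.6%). In replicate 2 it was 74.7% (71.1 to 78.2%), and the mean was 82.3% ± 10.7 (SD, n = 2). Over all annotated genes it was 78.7% and 74.1%, so members stood above the rest in replicate 1 and their interval included the rest in replicate 2. Reads whose splice chain matched only part of an annotated transcript made up 2.98% and 8.36% of member reads, against 10.5% and 10.8% over all genes. Known splice sites in a new combination held 1.41% and 6.52%, against 3.05% and 6.72% over all genes. TALON's genomic class, for reads that overlap a gene without following its annotated junctions, held 0.875% and 7.02%, against 5.14% and 3.11% over all genes.

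Among member reads on annotated models, the share on models typed as retained intron was 2.07% (136 of 6580) in replicate 1 and 8.05% (36 of 447) in replicate 2, against 1.12% and 1.53% over all genes. The intervals of the members, 1.74 to 2.44% and 5.70 to 10.98%, do not overlap. The median member read lay on a model of 1068 nt in replicate 1 and of 1849 nt in replicate 2. Reads on models longer than the gene's most used annotated model were 240 of 7317 (3.28%, 2.88 to 3.71%) in replicate 1 and 112 of 598 (18.7%, 15.7 to 22.1%) in replicate 2. That model was picked on the reads of both libraries, most of which came from replicate 1.

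**Figure D3:**
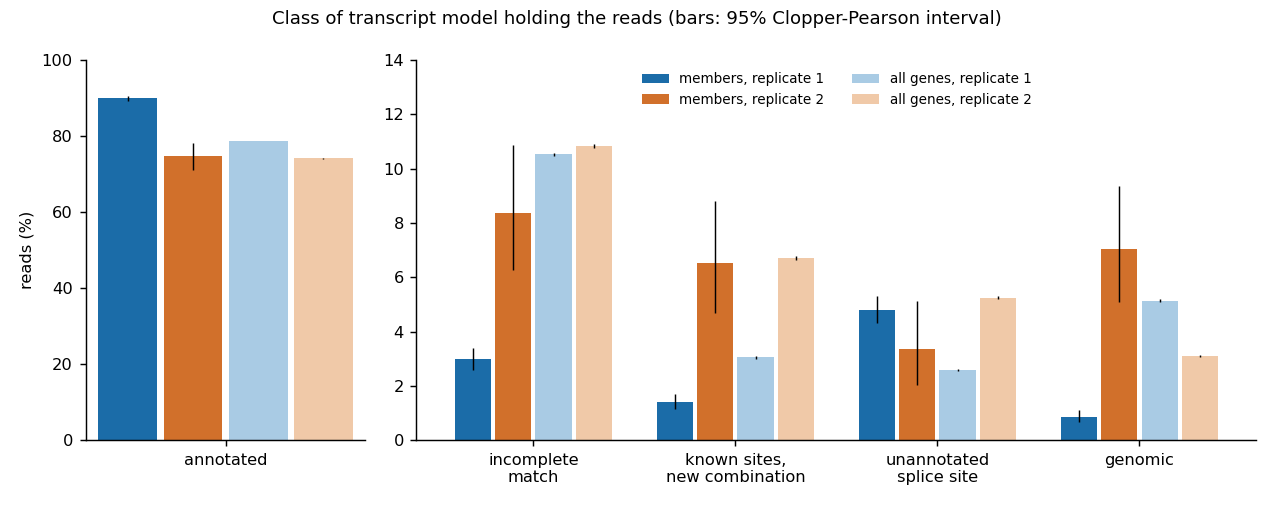
Percent of reads by class of transcript model, for members (dark) and all annotated genes (light) in replicate 1 (blue) and replicate 2 (orange), with 95% Clopper-Pearson intervals. The left panel has the annotated class and the right panel, on its own scale, the others; genomic reads of members were 0.875% in replicate 1 and 7.02% in replicate 2.

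At least 1 unannotated splice site was present in 352 member reads of replicate 1 (4.81%), above the 2.59% of all genes, and 210 of these came from Mrpl33. Without Mrpl33, the share in replicate 1 was 2.01%, and the annotated share of the members was 92.8%. In replicate 2, 20 of 598 member reads had such a site (3.34%), against 5.25% of all genes. In Mrpl33, a model of 3 exons and 460 nt that is not in the annotation held 197 of 239 reads in replicate 1 (82.4%, 77.0 to 87.0%) and 0 of 7 in replicate 2. The annotated coding transcript Mrpl33-201, with 4 exons, held 0 reads in both libraries.

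The model differs from Mrpl33-201 at the first intron. It keeps 8 bases beyond the annotated end of exon 1, from 31614022 to 31614030, and it leaves out exon 2, which is only 19 bases long, at 31614603 to 31614621 on the plus strand of chromosome 5. The 8 bases are intronic and exon 2 is coding in Mrpl33-201, and both stretches are shown because they carry this difference. Capitals mark the 8 bases kept in the model in the upper line (31614013 to 31614036) and exon 2 in the lower line (31614597 to 31614626), read from the GENCODE M21 transcript Mrpl33-203, which spans the intron.
Mrpl33 end of exon 1: gctgtctcttGTAAGTCGgtctga
Mrpl33 exon 2 with its flanks: cacaagTTGCCAAGAGCAAGTCAAAgtaag
The later splice site was used by 198 reads in replicate 1 and by 1 in replicate 2, and the annotated site by 7 and 1. Reads that joined both ends of exon 2 numbered 9 and 0. How reads over an exon of this length were aligned is not given in the sources used here, and its part in the model was not tested.

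Which model a gene used most could be compared for 21 members with at least 10 reads in each library. By Fisher's exact test with Benjamini-Hochberg adjustment over 4733 genes, the share of the most used model differed in 9 of the 21, and 28.7% of all genes tested were called. In all 9 the share was higher in replicate 1, and the model compared was the one with most reads over both libraries, most of which came from replicate 1. In Mrps7 (chromosome 11), Mrps7-201 held 128 of 139 reads in replicate 1 (92.1%, 86.3 to 96.0%) and 6 of 20 in replicate 2 (30%, 11.9 to 54.3%), adjusted p = 6.07e-08. In Mrps15, Mrps15-201 held 97 of 113 and 3 of 11 reads, adjusted p = 0.000675 by the exact test.

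In Mrpl24 (chromosome 3), Mrpl24-202 held 64 of 131 reads in replicate 1 and 3 of 31 in replicate 2 (48.9% and 9.68%), with an adjusted p of 0.000347 by Fisher's exact test. Replicate 2 instead had 19 reads on Mrpl24-203, a 5-exon coding transcript that starts inside the gene at 87921609, on which replicate 1 had 1 read. Mrpl24-201 had 42 and 0 reads. Mrpl24 shares 594 exon bases with Rrnad1 on the opposite strand, and whether counting used the strand is not given in the sources used here.

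In Mrps5 (chromosome 2) the most used model was not annotated. It matches the first 4 of 12 exons, ends at 127594569, the annotated end of exon 4, and held 28 of 49 reads in replicate 1 and 1 of 13 in replicate 2, adjusted p = 0.00850 by Fisher's exact test. The full transcript Mrps5-201 held 15 and 8 reads. With annotated models alone, the difference in the level of Mrps5 between the libraries was no longer called, at a log2 ratio of -0.93 in place of -1.88.

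In the other called members the most used model was a coding transcript: Mrpl3-201 with 72 of 78 and 9 of 17 reads, Mrps25-203 with 50 of 53 and 6 of 12, Mrpl4-201 with 132 of 150 and 4 of 10, Mrpl51-201 with 76 of 89 and 7 of 15, and Mrpl37-201 with 38 of 41 and 15 of 23. Over the 9 members, models longer than the most used annotated model held 12 of 843 reads in replicate 1 (1.42%, 0.738 to 2.47%) and 40 of 152 in replicate 2 (26.3%, 19.5 to 34.1%). An example is a form of Mrpl37 with 6 exons and 3166 nt that had 0 and 5 reads. The 9 members were called because their most used model held a lower share in replicate 2. More reads on other models there follow in part from that choice, so the 2 shares are no separate support. These calls rest on 10 to 23 reads in replicate 2 for all but Mrpl24.

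An unannotated model was also found in both libraries for Mrps27 (chromosome 13). It has 12 exons, from known splice sites in a new combination, where Mrps27-201 has 11, and it held 6 reads in each library. Mrps27-201 held 79 of 92 and 26 of 35 reads, and its share was not called different (adjusted p = 0.350 by Fisher's exact test).

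Reads of some members could belong to other loci. Of the 78 genes, 33 share exon bases with another gene, 8 on the same strand and 28 on the opposite strand. Mrps11 and Mrpl46, members of different subunits, share 173 bases on opposite strands. All 695 exon bases of Mrpl53-201 are shared with Gm42688 on the same strand, and Mrps34 shares 763 with Nme3. Among 5 processed pseudogenes named after members, Mrpl23-ps1 had 27 reads and 1 read, and Mrps36-ps1 2 and 0. Values of these genes are uncertain to that extent.

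The mitochondrial ribosome works with other nuclear genes, which were listed by role. Of 5 subunits that carry other names, 4 were called higher in replicate 1 by the binomial test and 1 higher in replicate 2. Aurkaip1, a small-subunit protein first named as an Aurora kinase partner, had 225 and 9 reads, and Gadd45gip1, a large-subunit protein, 148 and 12. Ptcd3, a small-subunit protein with pentatricopeptide repeats, ran the other way with 31 and 79 reads, 2.53-fold higher in replicate 2 (1.65 to 3.97). Chchd1 had 71 and 0. The 2 mitochondrial ribosomal RNA genes, mt-Rnr1 and mt-Rnr2, had 42 and 4 and 183 and 16 reads, and both were called higher in replicate 1.

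Genes that serve the ribosome rather than build it were split in direction. Of 8 translation factors tested, 4 were called higher in replicate 1 and 2 higher in replicate 2. Tufm, which brings aminoacyl-tRNA to the ribosome, had 137 and 58 reads, and the elongation factor Gfm1 had 34 and 96, while Gfm2, which acts in recycling, had 22 and 74. Of 19 assembly and rRNA-modification genes tested, 10 were called higher in replicate 1 and 4 higher in replicate 2, namely Noa1 (22 and 59), Gtpbp10 (2 and 25), Mrm1 (9 and 49) and Dhx30 (28 and 114). Dhx30, a helicase, and Noa1, a GTPase, were the most read of this list by mean CPM.

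Of 16 mitochondrial aminoacyl-tRNA synthetases tested, which charge the tRNAs, 5 were called higher in replicate 1 and 5 higher in replicate 2. Iars2 had 34 and 329 reads, 9.62-fold higher in replicate 2 (6.75 to 14.1). Fars2 had 127 and 26. Of the 4 genes for mRNA handling and membrane insertion, Slirp had 174 and 3 reads and its partner Lrpprc 27 and 123, calls in opposite directions. The summed fold of replicate 1 over replicate 2 was 1.27 for the translation factors (1.08 to 1.48), 1.34 for assembly (1.18 to 1.51) and 0.597 for the synthetases (0.532 to 0.670). Median model lengths of these lists were 2682, 2014 and 2868 nt, and of the members 1284 nt. Around the length curve fewer genes were called: 2 higher in replicate 1 and 1 higher in replicate 2 among the translation factors, 3 and 3 among assembly genes, and 1 and 3 among the synthetases. Tufm turned to higher in replicate 2 there (0.72, adjusted p = 0.00746 by the exact binomial test), and Gfm1, Gfm2 and Dhx30 lost their calls.

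**Figure D4:**
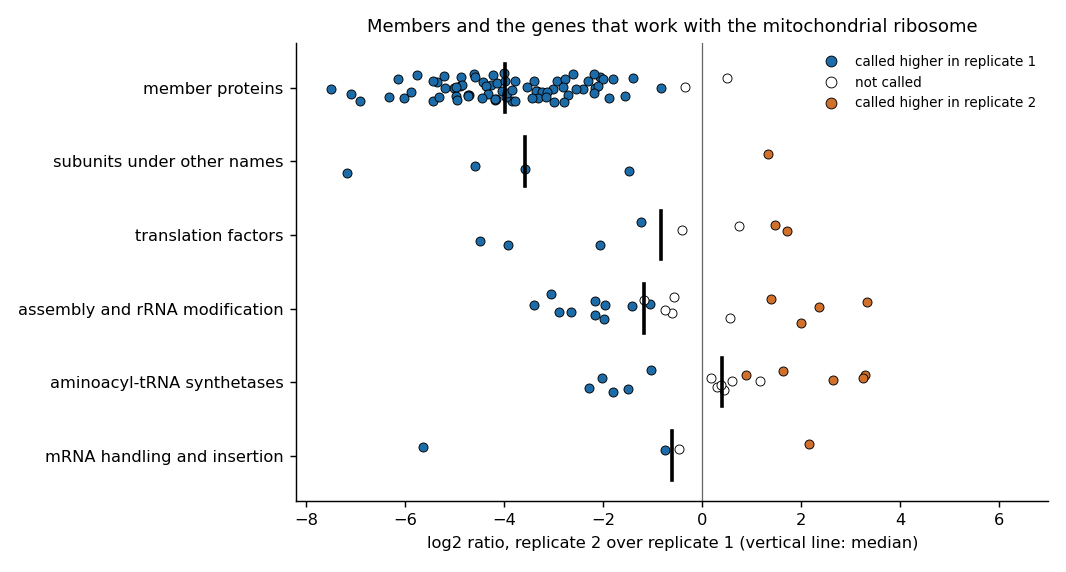
Log2 ratio of replicate 2 over replicate 1 for the 78 members and for the genes listed by role, 1 point per gene with at least 10 reads, filled by call and with the list median as a vertical bar. Members lie left of 0 except Mrpl1, while each of the other lists has genes on both sides.

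2 other families of short nuclear genes are given beside the members. All 81 tested genes of cytosolic ribosomal proteins were called higher in replicate 1, with a summed fold of 19.0 (18.3 to 19.7), above the interval of the members. Of 80 tested nuclear genes of the respiratory chain, 77 were called higher in replicate 1, 2 higher in replicate 2 and 1 was not called, with a summed fold of 5.72 (5.55 to 5.89) and a median log2 ratio of -4.61. Median model lengths were 799 and 771.5 nt. Around the length curve, 38 of the 81 cytosolic genes were called higher in replicate 1, 11 higher in replicate 2 and 32 not. For the respiratory chain, where 78 genes had a length, the counts were 35, 9 and 34.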

How the data were processed

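Long-read RNA-seq of adrenal gland was deposited as 1 table and 1 model annotation per library. The authors deposited raw counts: the reads assigned to every transcript model, unnormalized. TALON made the models separately in each library (GENCODE M21 on mm10), per the file headers and notes deposited beside the tables. A model without reads is not listed. The other deposited columns used (class, exons, length and model coordinates) describe the models. Which aligner, read correction, platform and versions were used is not given in the sources used here. Aligning and correction could change splice sites and model ends, and the model length is that of the model, not of the reads.

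For every gene, reads on its models were added up and given as CPM over all reads of a library. Genes with at least 10 reads over both libraries were compared by an exact two-sided binomial test on TMM-scaled sizes (edgeR 4.0.16, R 4.3.3), adjusted at 0.05. The length curve was a lowess fit with span 0.3 over genes with at least 20 reads (statsmodels 0.14.6). Model shares used Fisher's exact test (scipy 1.17.1). The tests were run first on simulated data. Log2 ratios used a pseudocount of 0.5 reads. Intervals are 95% Clopper-Pearson, Poisson or conditional binomial. Intervals and floors of 3 reads cover counting error only, since amplified reads are not independent molecules, and p-values measure only the difference between these 2 libraries, which may be technical. DESeq2 1.42.0 gave size factors as an alternative.

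The members and lists were chosen with earlier results of these data known. Genes were named by rule: the 10 members highest by mean CPM, those with under 3 reads in a library, the 8 with the largest log2 ratios among those called, those not called, those that turned around the length curve, those called for model share, the S18 paralogs, examples from each region of the ribosome, and in each partner list the 2 highest by mean CPM and those called against the majority. Other genes were named after their values were seen, and Mrpl33, Mrps27 and the windows printed were chosen so.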

Additional observations from a re-analysis of the deposited data

How the results depend on the processing

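The 76 members called different between the libraries became 75 with total counts, DESeq2 size factors, no read minimum or annotated models alone, 70 of the 71 tested with at least 50 reads, and 76 without unspliced unannotated models. Total counts move the median log2 ratio of all genes from -0.01 to 0.42 and the share of calls that are higher in replicate 2 from 46.2% to 55.9%; there the members' median was -3.55, and Mrpl47 turned to 0.092, without a call. The 29 members called around the length curve were 31 with a lowess span of 0.5 and 29 with the count-weighted mean length of a gene's models. They were 49 with coding length, an alternative added after the data were seen, which changes the expected ratio of each gene. With coding length, 17 of 77 adjusted log2 ratios changed sign, 6 of them among the 29 members called with model length: Mrps25 (0.78), Mrpl51 (0.95), Mrpl47 (1.58), Mrpl50 (1.51), Mrpl16 (-0.064) and Mrpl37 (-0.77). The 9 members with a different share of the most used model were 3 of 5 tested with at least 20 reads in each library and 2 of 7 tested on annotated models alone, where fewer members were tested. The percent of reads on members ranged from 0.102 to 0.903 and the annotated share from 74.7 to 89.9 when either library was left out. No paired analysis was possible because there was 1 group. Low member counts limit replicate 2, where 23 of 78 members had at least 10 reads and 62 had at least 3. Replicate 2 had 587861 reads in all and replicate 1 had 810239, and the members took 0.102% and 0.903% of them.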

Other observations

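The 3 members with 0 reads in replicate 2, Mrpl36, Mrps16 and Mrpl55, had 89, 67 and 59 reads in replicate 1, where the median member had 84, and a further 13 members had 1 or 2 reads in replicate 2. Members lie on 17 chromosomes, with 11 on chromosome 11 and 8 on chromosome 17. Unannotated reads antisense to members numbered 259 in replicate 1 and 48 in replicate 2, of which 0 and 1 were spliced, and Mrps6 alone held 205 and 38 of them. Mrps17 was spread over many models, with 19 in all, and its most used one held 25.9% of reads in replicate 1 and 30% in replicate 2. Short exons like exon 2 of Mrpl33 were found in Mrpl24, where an exon of 26 bases was joined at both ends by 9 and 1 reads and passed over by 56 and 0, and in Mrpl4, where an exon of 24 bases was joined by 0 and 0 and passed over by 147 and 10, and one of 30 bases was joined by 5 and 0 and passed over by 0 and 0.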
